A study of Mus musculus with 3 samples.

Results

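Among wild-type TEa T cells recovered from recipient spleens, 233 of 6556 cells carried a strong interferon-response transcript signature, a share of 3.55% (exact 95% binomial interval 3.12 to 4.03%). These interferon-response cells were chosen by their own counts. A barcode was kept as a T cell with at least 1000 unique molecular identifiers (UMIs, each marking 1 captured transcript), at least 500 genes, at most 10% mitochondrial UMIs, at least 6 summed UMIs of Cd3d, Cd3e, Cd3g, Trac, Trbc1 and Trbc2, and at most 1 UMI of Lyz2. It was selected as an interferon-response cell with at least 5 summed UMIs of 5 genes, Ifit1, Ifit3, Rsad2, Mx1 and Usp18, called the rule genes here. The reference was the 4537 kept spleen T cells with none of these UMIs, and the other 1786 had 1 to 4. Over both wild-type libraries 10546 T cells were kept.

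TEa cells are CD4 T cells with a transgenic T cell receptor that recognises a peptide of the BALB/c I-E alpha chain. Naive congenic TEa cells, wild-type or Ldha-/-, had been transferred into C57BL/6 mice that received a BALB/c heart, and were sorted 7 days after transplantation. Wild-type cells came from the spleen and from the heart allograft, and Ldha-/- cells came from the spleen. The Ldha-/- library was not analysed here. Each group is 1 library, the number of animals behind it is not given in the sources used here, and the recipients kept their own T cells. There was therefore no test: values are descriptions of these libraries, and intervals cover counting error only.

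Type I interferons (the alpha and beta family) bind the receptor made of Ifnar1 and Ifnar2, whose kinases Jak1 and Tyk2 phosphorylate STAT proteins. With Irf9 these form a complex that binds the interferon-stimulated response element (ISRE) in promoters of antiviral genes. Interferon gamma acts through Ifngr1 and Ifngr2 on STAT dimers, which bind the gamma-activated site (GAS), and many targets answer to both kinds of interferon. In T cells type I interferon is known to alter survival, expansion and effector differentiation, depending on its timing relative to antigen.

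The promoters of 3 rule genes and of 6 genes that were higher in the selected cells are shown, and each holds the response-element letters upstream of its start. For Mx1 and Usp18 no promoter was available, so their letters were not searched. Other higher genes with such letters upstream, among them Slfn5 and Gbp7, are not shown. The letters searched were GAAANNGAAA on both strands, in RefSeq promoters of 300 bases on GRCm38.p6, which reach from 250 bases before to 50 after each start. Capitals mark the matches, some of which overlap, and each sequence runs 5′ to 3′ in the direction of its gene. Where the match lies on the opposite strand, its letters appear as the reverse complement.

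Ifit1 (chr19:34640765-34640844, plus strand): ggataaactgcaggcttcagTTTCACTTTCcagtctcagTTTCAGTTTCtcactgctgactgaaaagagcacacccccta

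Ifit3 (chr19:34583353-34583436, plus strand): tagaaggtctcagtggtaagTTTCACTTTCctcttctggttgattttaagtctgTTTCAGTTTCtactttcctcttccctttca

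Rsad2 (chr12:26456513-26456592, minus strand): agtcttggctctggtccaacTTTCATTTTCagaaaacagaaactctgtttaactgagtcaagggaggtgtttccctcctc

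Isg15 (chr4:156200837-156200916, minus strand): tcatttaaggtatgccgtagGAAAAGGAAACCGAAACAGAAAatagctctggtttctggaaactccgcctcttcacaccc

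Oas3 (chr5:120777675-120777754, minus strand): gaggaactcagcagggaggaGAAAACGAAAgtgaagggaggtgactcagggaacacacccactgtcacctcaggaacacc

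Bst2 (chr8:71537543-71537622, minus strand): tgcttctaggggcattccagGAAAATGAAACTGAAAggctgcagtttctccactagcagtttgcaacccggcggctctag

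Gbp2 (chr3:142620584-142620662, plus strand): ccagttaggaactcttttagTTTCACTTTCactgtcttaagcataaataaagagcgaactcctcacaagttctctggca

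Irgm1 (chr11:48871421-48871470, minus strand): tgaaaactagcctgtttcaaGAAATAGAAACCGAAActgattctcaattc

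Igtp (chr11:58199502-58199555, plus strand): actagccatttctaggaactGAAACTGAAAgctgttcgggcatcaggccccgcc

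In Ifit1 the matches began 104 and 85 bases before the start, in Ifit3 156 and 122, and in Rsad2 120. Isg15 held 3 overlapping matches, the first of them 78 bases before its start. Of 27025 genes with a promoter in the RefSeq table, 1079 (3.99%) held the letters. Among the genes at least 2-fold higher in the selected cells, 63 had a promoter in the table and 25 of them held the letters (39.7%), and of 3546 other genes past the expression floor with a promoter 132 did (3.72%). The GAS letters TTCNNNGAA were in 12 of the 63 promoters (19%), in 272 of the 3546 (7.67%) and in 2582 of all promoters (9.55%). For the interferon gamma targets the counts were 10 of 14 promoters with the ISRE letters and 7 of 14 with the GAS letters. A match describes letters in this window and not a bound site, and Irf7 and Isg20 had no ISRE match in it.

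The rule genes are known for antiviral proteins and a regulator. Ifit1 binds viral RNA, Ifit3 is a related protein, and Rsad2 (viperin) makes a nucleotide that blocks viral polymerases. Mx1 is known as a nuclear GTPase, and whether these cells make a working protein was not measured. Usp18 removes ISG15 from proteins and dampens signalling at the type I receptor. On GRCm38 (GENCODE M21) the rule genes lie at chr19:34640871-34650009 (Ifit1), chr19:34583531-34588731 (Ifit3), chr12:26442746-26456452 (Rsad2), chr16:97447035-97462907 (Mx1) and chr6:121245906-121270917 (Usp18). Their levels are given as CPM, the summed count of a gene divided by the summed UMIs of the cells and scaled to counts per 1000000, and were set by the selection. Ifit1 stood at 590 CPM (95% Poisson interval 559 to 624) and was seen in 221 of the 233 cells. Ifit3 stood at 393 CPM in 198 cells, Usp18 at 156 in 161, Rsad2 at 139 in 117 and Mx1 at 89.5 in 98. Most cells were selected through several genes: 4 had UMIs of a single rule gene, 46 of 2 genes, 76 of 3, 64 of 4 and 43 of all 5.

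The selected cells lay at the upper end of a continuous range of rule-gene counts, with no gap at the threshold. They had a median of 9 rule-gene UMIs, from 5 to 57. Although they were 3.55% of the cells they held 2981 of the 5655 rule-gene UMIs (52.7%), and 12 cells with 40 or more held 10.5%. Just outside the threshold were 75 cells with exactly 4 such UMIs and just inside it 48 cells with exactly 5. Isg15 stood at 298 CPM in the former and 289 CPM in the latter, and the type I targets described below summed to 16351 and 16367 CPM. In droplet data, free RNA adds counts to every barcode. Spleen barcodes of 1 to 100 UMIs held the rule genes at 91.6 CPM, near the 101 CPM over all kept cells, against 1368 CPM in the selected cells. At that level a cell of the selected cells' median size, 8412 UMIs, would hold 0.771 rule-gene UMIs.

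**Figure D1:**
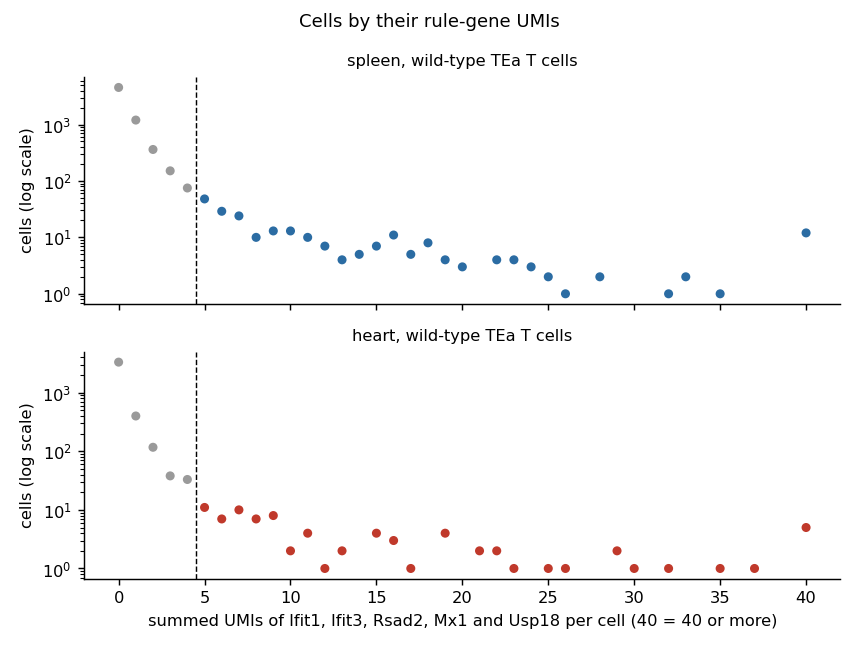
Number of kept T cells (log axis) by their summed UMIs of the 5 rule genes in the spleen (top) and heart (bottom) libraries; the dashed line marks the threshold of 5 UMIs, coloured points lie past it, and the last point pools cells with 40 or more. Cell numbers fall without a gap from 4537 spleen cells at 0 to 75 at 4 and 48 at 5.

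Each rule gene was also described by splitting the spleen cells on the other 4 rule genes, cells with at least 4 of their UMIs against cells with none. Ifit3 was 44.7-fold higher in the former (counting interval 39.1 to 51.3; 335 against 7.49 CPM). Rsad2 was 37.7-fold higher, Ifit1 34.4-fold, Mx1 24.6-fold and Usp18 12.3-fold. In the heart library the same split gave folds from 23.6 for Mx1 to 106 for Ifit1. In both libraries, cells with at least 4 summed UMIs of the other rule genes held the remaining one at a higher level. The rule genes were chosen together with earlier results of these data known. These folds therefore describe their joint presence and give no separate support for the selection.

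The selected cells resembled the reference cells in size, in quality and in their pooled shares of the TEa receptor V segments. Their median was 8412 UMIs and 2268 genes per cell, against 7945 and 2176 in the reference, and the median mitochondrial share was 4.34% against 4.58%. Of 76 Trbv UMIs in them 61 were of Trbv19, the TEa V beta segment (80.3%, interval 69.5 to 88.5%) and 79.3% in the reference. The Trav14 family, its V alpha segment, made up 64.0% of Trav UMIs (56.3 to 71.1%) and 59.6% in the reference. The other Trbv and Trav UMIs came from other segments, and the UMIs were too few to read the receptor of each cell. CD4 T cell markers (Cd3e, Cd3d, Cd4, Trac, Trbc2, Cd5, Cd28) summed to 9074 CPM and 9091 CPM. No selected barcode was also a kept barcode of the heart library, with which the spleen library shared 6 kept barcodes.

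Markers of other cell types were at or near 0 in the selected cells, with 3 exceptions. The plasma cell, dendritic cell, neutrophil and platelet lists had 0 UMIs in the 233 cells, which allows up to 1.38 CPM per list, and the monocyte or macrophage list had 2 UMIs. B cell markers summed to 183 CPM and 175 CPM in the reference, nearly all of it Ighm. The plasmacytoid dendritic cell list summed to 568 against 115 CPM through Bst2, itself an interferon target, and the defining markers Siglech and Klk1 were at 0. Haemoglobin genes stood at 4722 CPM, and a single selected barcode held 10285 haemoglobin UMIs of its 17358, with 7 rule-gene and 62 T cell UMIs. The reference value of 139 CPM also came mostly from 1 barcode, with 5147 of 5288 haemoglobin UMIs. Without both barcodes the levels were 2.77 and 3.71 CPM. No doublet caller was used, so cell pairs can remain.

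Of 4622 genes with at least 20 CPM over all kept spleen T cells (the floor), rule genes left out, 81 were at least 2-fold higher in the selected cells (1.75%) and 2 were at least 2-fold lower (0.0433%). Ratios are log2 of (CPM + 1) in the selected over (CPM + 1) in the reference cells, which understates the difference for low genes, and the median over all genes past the floor was -0.04. Since these cells' counts chose the cells, the ratios are a description. Among the 81 genes, 52 belonged to an interferon gene list and 4 were haemoglobin genes. Of the 4622 genes, these lists held 46 type I targets, 9 interferon gamma targets and 8 transcription factors. They also held 7 Schlafen and Ly6 genes and 21 MHC class I genes, and were chosen with earlier results known. Without both barcodes rich in haemoglobin 77 genes were at least 2-fold higher. The floor counts the selected cells too, so a gene can pass it through its level in them. With the floor taken in the reference cells alone, an alternative chosen after seeing the data, 71 genes were at least 2-fold higher and 3 lower. The other 25 of the 81 included Phf11c, Pydc4, Plac8 (189 against 45.2 CPM), Pml (72.0 against 18.7), Trafd1 (98.2 against 24.2), Nmi (178 against 84.3) and the RNA-editing enzyme Adar (54.6 against 26.3). Of those named, Pml was under the floor in the reference cells and passed it only with the selected cells counted. These 7 were picked after their values were seen.

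**Figure D2:**
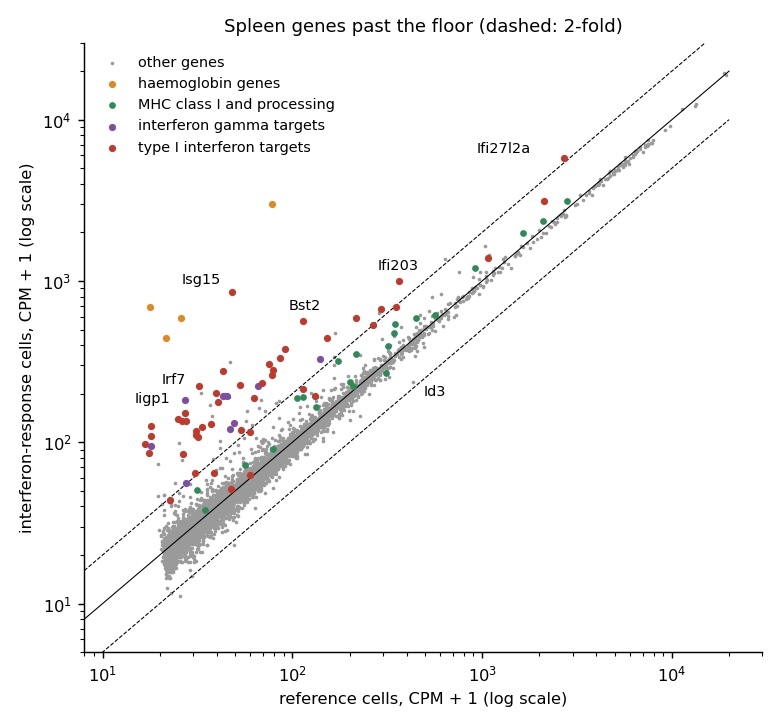
Level of each spleen gene past the floor in interferon-response cells (vertical) against reference cells (horizontal), both in CPM + 1 on log axes; the solid line is equality and the dashed lines 2-fold. Of the 46 type I targets past the floor, 36 lie on or above the upper line and 10 between it and the diagonal, and the 4 haemoglobin genes are high through 1 selected barcode.

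The antiviral effectors made up the largest group. Of 48 listed genes in the files 31 passed the floor, 23 of them were at least 2-fold higher and none was 2-fold lower, with a median log2 ratio of 1.76 (order-statistic interval 1.11 to 2.30). Of these, Oas3, Trim30d and Ifit1bl1 were under the floor in the reference cells, and 20 of the 28 genes past it there were at least 2-fold higher. Oas3, which makes the oligoadenylate that activates RNase L, stood at 125 CPM in the selected and 17.0 CPM in the reference cells. Isg20, an RNA exonuclease, stood at 223 and 31.1 CPM. Rtp4, an interferon-induced RNA-binding chaperone, stood at 276 and 41.9 CPM, and Eif2ak2, the kinase PKR that halts translation on sensing double-stranded RNA, at 138 and 24.1 CPM. Oas3 had a UMI in 59.2% of the selected cells and 12.2% of the reference cells, and Rtp4 in 88.4% and 23.6%.

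Effectors differed in how many of the selected cells they marked. Bst2 (tetherin), which holds budding virions at the cell surface, stood at 561 CPM and had a UMI in 88.4% of the selected cells, against 113 CPM and 54.5% of the reference cells. Ifitm3, which blocks virus entry at membranes, stood at 151 and 26.3 CPM but was seen in 35 selected cells, of which 1 held 85 of its 330 UMIs. Ifi27l2a was already abundant in the reference cells at 2689 CPM, and stood at 5787 CPM in the selected cells (log2 ratio 1.11). Below the floor, Oasl2 stood at 49.1 and 1.63 CPM, Cmpk2 at 60.6 and 4.28 CPM, and Ifit3b at 104 and 1.66 CPM. Ifit3b and Ifit1bl1 resemble the rule genes in sequence, as the Trim30 genes and the Ifi200 family resemble each other, so the split of reads within these families is uncertain.

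Isg15 had the highest ratio among genes past the floor other than the rule genes and the haemoglobin genes. It encodes a ubiquitin-like protein that is conjugated to other proteins during the interferon response, and its gene lies at chr4:156199424-156200818. Isg15 stood at 857 CPM (819 to 897) in the selected cells and 46.9 CPM in the reference cells, a log2 ratio of 4.16 and a fold of 18.3 (counting interval 17.1 to 19.5). It had a UMI in 213 of 233 selected cells, with a median of 6 UMIs per cell and a highest cell of 53. In the reference cells it had a UMI in 25.7%, with a median of 0 and a highest cell of 13. Of 4 genes of the ISG15 conjugation list past the floor, 3 were at least 2-fold higher. Herc6, the ligase in mice, stood at 134 and 26.5 CPM, the ligase Trim25 at 84.0 and 25.7 CPM, and the activating enzyme Uba7 at 42.7 and 21.6 CPM (log2 ratio 0.95). The conjugating enzyme Ube2l6, below the floor, stood at 33.5 and 4.65 CPM.

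Sensors of nucleic acids and ADP-ribosyltransferases were higher as groups. Of 8 sensor genes past the floor 7 were at least 2-fold higher, with a median log2 ratio of 1.69, and Ifih1 passed it only with the selected cells counted. Ifih1 (MDA5) and Ddx58 (RIG-I), which detect viral RNA, stood at 85.3 against 16.6 and 110 against 30.1 CPM. Zbp1, a sensor of Z-form nucleic acid, stood at 281 and 77.7 CPM, and Ifi203 of the DNA-binding Ifi200 family at 1004 and 365 CPM. Tmem173 (STING), the adaptor of the cytosolic DNA pathway, stood at 61.5 and 59.1 CPM and was the exception in this list. All 4 ADP-ribosyltransferase genes past the floor were at least 2-fold higher, among them Parp9 (177 against 39.4 CPM) and its partner Dtx3l (129 against 36.4 CPM). Over the 4 lists of type I targets together, 36 of 46 genes past the floor were at least 2-fold higher, with a median of 1.78. With the floor taken in the reference cells alone 32 of 42 were, with a median of 1.75.

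**Figure D3:**
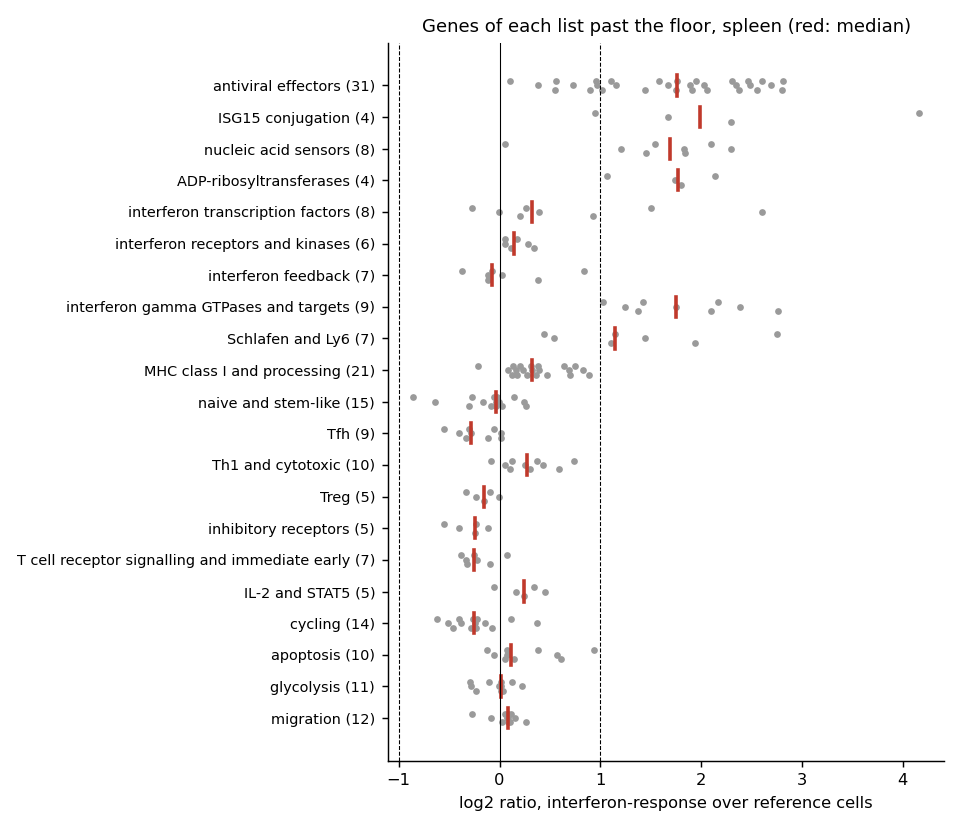
Log2 ratio of interferon-response over reference spleen cells for every gene past the floor (grey points) in each gene list, with the number of such genes in parentheses, the list median as a red bar and 2-fold as dashed lines. The medians of the type I and interferon gamma target lists lie to the right of the 2-fold line, while the medians of receptors, feedback genes and T cell state lists lie between -0.28 and 0.27.

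The upstream parts of the pathway differed less between selected and reference cells than the targets. Ligands were nearly absent: the 20 interferon ligand genes other than Ifng had 13 UMIs in all 6556 kept spleen T cells, 12 of Ifnz and 1 of Ifnk, and Ifnb1 had none. Ifng stood at 13.8 CPM in the selected and 17.8 CPM in the reference cells. Among the 6 receptor and kinase genes past the floor none reached 2-fold, with a median log2 ratio of 0.14. Ifnar1 stood at 53.7 CPM (44.4 to 64.3) and 49.6 CPM, Ifnar2 at 84.0 and 74.6 CPM, Ifngr1 at 83.5 and 80.6 CPM, and Jak1 at 357 and 345 CPM. Ifngr2, the second chain of the interferon gamma receptor, was low in both, with 4 UMIs in the selected cells (1.84 CPM) and 3.13 CPM in the reference.

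Among the transcription factors of the pathway, Irf7 was at least 2-fold higher. Irf7, the factor that amplifies type I interferon production, stood at 201 CPM (182 to 220) and 32.1 CPM, a log2 ratio of 2.61. Irf9 stood at 105 and 54.6 CPM (log2 ratio 0.93), and Stat2, below the floor, at 37.2 and 9.57 CPM. Irf1, an early target of interferon gamma, stood at 89.0 and 67.8 CPM, and Irf3, which is activated without being induced, at 50.5 and 61.4 CPM. Of 7 feedback genes past the floor none reached 2-fold. Socs1, which inhibits Jak kinases, stood at 78.5 and 43.6 CPM, and Socs3 at 41.3 and 44.8 CPM.

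Genes known as interferon gamma targets were higher to a similar degree as the type I targets. Of 24 in the files 9 passed the floor and were at least 2-fold higher, with a median log2 ratio of 1.75. Gbp2 passed it only with the selected cells counted, at 17.0 CPM in the reference, and the other 8 had a median of 1.59. Iigp1, an immunity-related GTPase that attacks pathogen vacuoles, stood at 183 and 26.1 CPM, and the related Irgm1 and Igtp at 191 against 44.0 and 221 against 65.1 CPM. The guanylate-binding proteins Gbp2 and Gbp7 stood at 93.1 against 17.0 and 193 against 42.1 CPM. Every selected cell had a UMI of this list, with a median of 13, and 95.2% of the reference cells had one, with a median of 4. The chemokine Cxcl10 was confined to few cells: it stood at 50.9 CPM against 0.315 CPM, but 13 selected cells held all 111 UMIs and the 3 highest held 69.4% of them. Ciita, the interferon gamma-inducible master regulator of MHC class II, had 0 UMIs in the selected cells.

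The MHC class I genes, which both interferons raise in many cells, differed modestly. None of 21 genes past the floor reached 2-fold, 20 had a log2 ratio above 0 and the median was 0.32 (0.17 to 0.64). The non-classical H2-T22 stood at 318 and 172 CPM (log2 ratio 0.88). The peptide transporter Tap1 stood at 191 and 113 CPM, tapasin (Tapbp) at 187 and 105 CPM, and the immunoproteasome subunit Psmb10 at 352 and 216 CPM. The classical heavy chains H2-K1 and H2-D1, already above 2000 CPM in the reference, had log2 ratios of 0.17 each, and B2m of 0.27.

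Levels followed the number of rule-gene UMIs across the whole range. Going from cells with 0 to those with 1 to 2, 3 to 4, 5 to 9, 10 to 19 and 20 or more rule-gene UMIs, Isg15 stood at 46.9, 82.1, 215, 477, 928 and 1942 CPM in spleen. Irf7 stood at 32.1, 51.3, 109, 138, 240.5 and 321 CPM over the same classes. The interferon gamma targets summed to 533 CPM in the first class and 3541 CPM in the last, and the MHC class I genes to 11149 and 15080 CPM. Some genes stood apart only in the last classes: Socs1 stayed between 35.5 and 43.6 CPM up to 9 rule-gene UMIs and then stood at 92.5 and 189 CPM. Of the 111 Cxcl10 UMIs in selected cells 93 came from the 35 cells with 20 or more, where it stood at 266 CPM (215 to 326). Ifnar1 lay between 45.8 and 59.8 CPM in every spleen class, within the counting intervals of the upper classes.

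**Figure D4:**
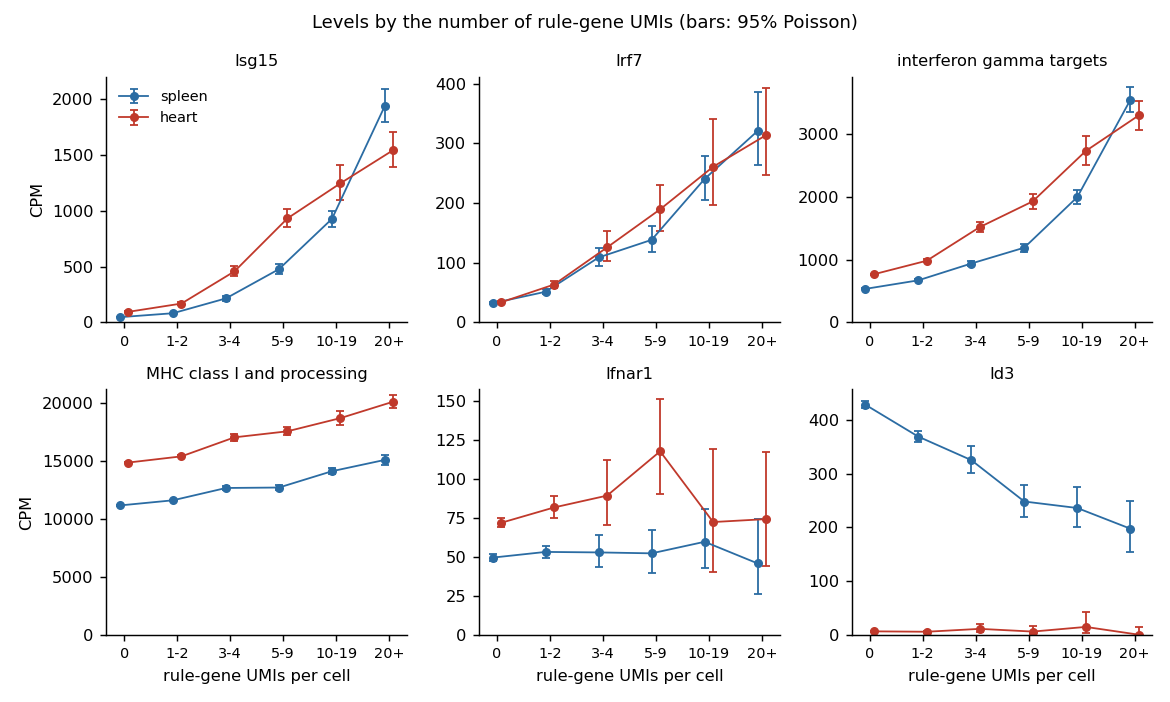
Level in CPM of 4 genes and 2 summed gene lists in spleen (blue) and heart (red) T cells grouped by their rule-gene UMIs; points are levels of the summed counts and bars exact 95% Poisson intervals. In spleen, Isg15 goes from 46.9 to 1942 CPM across the classes, Ifnar1 stays between 45.8 and 59.8 CPM, and Id3 goes from 429 to 198 CPM.

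Single cells varied around these levels. The type I targets summed to a median of 20839 CPM per selected cell and 8997 CPM per reference cell, and 182 of the 233 selected cells (78.1%) lay above the 95th percentile of the reference cells. For the interferon gamma targets 140 selected cells (60.1%) lay above that percentile, and 12 lay at or below the reference median. For the MHC class I genes 48 did (20.6%), and 49 lay at or below the reference median. Most selected cells thus lay above nearly all reference cells for the type I targets outside the rule genes, and a minority did for MHC class I.

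Surface and differentiation genes of the Ly6 and Schlafen families were higher with the interferon targets. Of 7 such genes past the floor 5 were at least 2-fold higher. Slfn5, a nuclear restriction factor, stood at 314 and 45.8 CPM, and Slfn1 at 632 and 284 CPM. Ly6a (Sca-1), an interferon-inducible surface protein of activated mouse T cells, stood at 1374 and 640 CPM. Ly6c2 stood at 155 and 56.4 CPM, seen in 20.6% of the selected and 9.17% of the reference cells, and Ly6e at 793 and 545 CPM.

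The lists of T cell state had no gene past the floor that reached 2-fold in either direction. Their medians lay between -0.28 for the follicular helper list and 0.27 for the Th1 and cytotoxic list. Within the naive and stem-like list (15 genes past the floor, median -0.03), Id3, a transcriptional inhibitor of memory-like and follicular cells, stood at 236 CPM (216 to 258) and 429 CPM, a log2 ratio of -0.86. Tcf7, the factor TCF-1, stood at 364 and 451 CPM, Dapl1 at 145 and 226 CPM, and Il7r, the receptor chain for IL-7, at 170 and 144 CPM. In the follicular list Cxcr5 stood at 29.4 and 37.3 CPM and Tox at 47.7 and 70.3 CPM. In the Th1 list Ccl5 stood at 402 and 327 CPM with a UMI in 25.3% and 13.0% of cells, Nkg7 at 248 and 165 CPM, and the chemokine receptor Cxcr3 at 205 and 191 CPM. Foxp3, which defines regulatory T cells, had 3 UMIs in the selected cells, all in 1 cell (1.38 CPM). In the reference it stood at 0.342 CPM, with a UMI in 0.198% of cells.

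The share of interferon-response cells differed between T cell states. State genes were read after thinning every cell to 4000 UMIs, while the selection used all UMIs. Among spleen cells with at least 2 Ccl5 UMIs 39 of 439 were selected (8.88%, 6.39 to 11.9%), and among the rest 3.19% (2.76 to 3.67%). For Ly6c2 the shares were 6.99% with a UMI and 3.27% without, and for Plac8 9.09% with at least 2 UMIs and 3.29% without, although both are themselves higher in interferon-response cells. Cells with a Tcf7 UMI had a share of 3.07% and cells without 5.19%, and for Id3 the shares were 2.91% and 4.49%. With the rule also applied to thinned counts, at 3 or more UMIs, the shares were 7.29% and 3.06% for Ccl5 and 2.85% and 4.93% for Tcf7. For Cxcr5 (3.23% and 3.63%) the intervals overlapped. In the heart library the Ccl5 shares were 2.62% and 1.92%, with overlapping intervals.

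The listed genes of activation, division and metabolism past the floor showed small differences. The cycling list had a median of -0.25 over 14 genes past the floor and summed to 1965 CPM in the selected and 2379 CPM in the reference cells. By rule-gene class it stood at 2447 CPM at 5 to 9 UMIs and at 1471 and 1401 CPM in the upper classes, against 2379 CPM at 0. The immediate early genes downstream of the T cell receptor had a median of -0.25, with Egr1 at 45.0 and 56.5 CPM and Dusp2 at 199 and 251 CPM, and Cd69 at 60.1 and 56.9 CPM. Nr4a1 of that list, below the floor, stood at 19.3, 13.3, 11.5, 5.32, 2.85 and 14.3 CPM from the class of 0 to that of 20 or more. In the classes from 5 rule-gene UMIs up, it had 6, 2 and 5 UMIs. Ldha, the subunit of lactate dehydrogenase that the study deleted in other cells, stood at 446 CPM (419 to 475) and 482 CPM. The glycolysis list had a median of 0.01 and the migration list of 0.08. Among cell death genes Casp8, which initiates death-receptor apoptosis, stood at 165 and 108 CPM, and the death ligand Tnfsf10 (TRAIL), below the floor, at 20.2 and 6.99 CPM.

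Few genes were lower, and their count depended on the processing, from 0 with a floor of 50 CPM to 121 after thinning every cell to 4000 UMIs. The 2 past 2-fold were Gm42722 (10.1 against 24.4 CPM) and 2810417H13Rik (22 against 48.5 CPM; also named Pclaf, a PCNA-associated factor). Among the 12 named genes with the lowest ratios, Id3 had the highest level, and the other 11 stood between 20.8 and 62.8 CPM in the reference. Mdn1, a ribosome assembly factor, stood at 10.6 and 22 CPM, Prkrir at 13.8 and 28.4 CPM, and Kdm6b, a histone H3 demethylase, at 15.1 and 28.0 CPM. At such levels 23 to 83 UMIs in the selected cells stood behind each of the 11 ratios.

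The same rule applied to the heart allograft library selected 82 of 3990 T cells (2.06%, 1.64 to 2.54%). After thinning every cell to 4000 UMIs and applying the rule to the thinned counts, the shares were 1.68% in spleen (1.38 to 2.02%) and 1.08% in heart (0.776 to 1.45%). With 1 library per tissue, tissue and library cannot be told apart. Of 4428 genes past the same floor in heart, 71 were at least 2-fold higher in the selected heart cells (1.6%) and 20 lower (0.452%), and with the floor taken in the heart reference cells alone 62 and 23. Among 3956 genes past both floors, 61 were at least 2-fold higher in spleen and 64 in heart, and 52 were in both sets, which is 85.2% of the spleen set and 81.3% of the heart set. All 61 had a log2 ratio above 0 in heart.

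Single targets differed between the libraries in their reference level and in their ratio. Isg15 stood at 1153 CPM in the selected heart cells and 94.8 CPM in their reference (log2 ratio 3.59). Slfn5, below the heart floor, stood at 79.7 and 1.89 CPM in heart, a log2 ratio of 4.80, against 2.75 in spleen where the reference held 45.8 CPM. Ifitm3 showed the opposite order, 1309 and 635 CPM in heart (log2 ratio 1.04) against 151 and 26.3 CPM in spleen. Irf7 stood at 236 and 33.7 CPM in heart. Ly6c2, 2.75-fold higher in the selected spleen cells, stood at 225 and 164 CPM in heart (log2 ratio 0.45). Id3 was at 6.21 and 6.23 CPM in heart, too low for its spleen difference to be read there, and Klf2, a factor for lymphoid recirculation, stood at 24.8 and 58.9 CPM in heart but at 893 and 879 CPM in spleen.

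**Figure D5:**
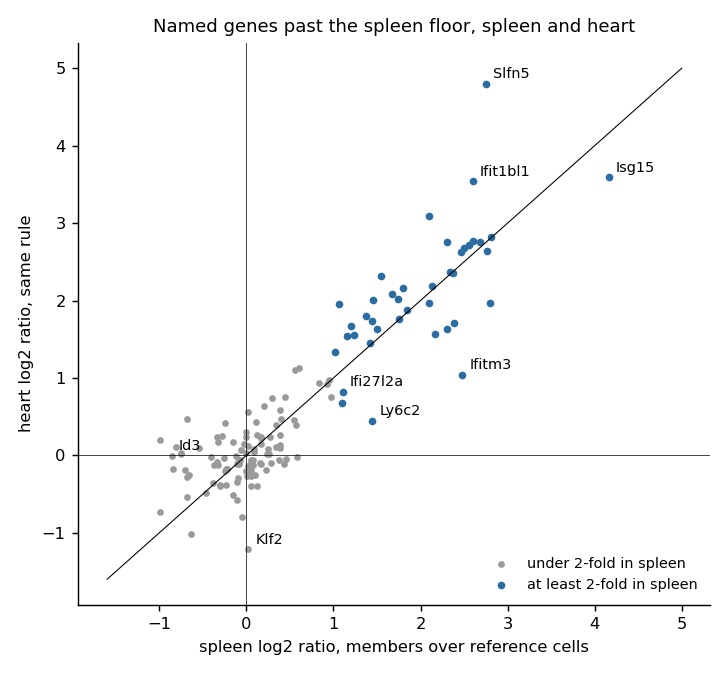
Log2 ratio of interferon-response over reference cells in heart (vertical) against spleen (horizontal) for the named genes past the spleen floor; the diagonal marks equal ratios and blue points are genes at least 2-fold higher in spleen. All blue points lie above 0 in heart, with Slfn5 (4.80) above the diagonal and Ifitm3 (1.04) and Ly6c2 (0.45) below it.

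The interferon gamma targets had a median log2 ratio of 1.64 in heart over 12 genes past the heart floor, 11 of them at least 2-fold higher, and 10 of 11 were with the floor taken in the reference cells alone. For MHC class I genes the heart median was 0.42, with 2 of 21 genes at least 2-fold higher. Interferon ligands other than Ifng had 7 UMIs in all heart T cells, while Ifng stood at 92.1 CPM in the selected heart cells and 94.7 CPM in their reference. By the cycling list, heart cells with at least 8 thinned UMIs had a selected share of 1.17% (0.733 to 1.76%) and the others 2.92% (2.23 to 3.75%), whereas in spleen these were 3.36% and 3.65% with overlapping intervals.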

How the data were processed

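Single-cell libraries were made with droplet-based 3' v3 chemistry, per the labels' protocols, which reads 1 tag per transcript. The values deposited by the authors are whole UMI counts of each gene in each barcode, not normalized. Cell Ranger 3.0.2 stands in both wild-type matrices, per the file headers. Seurat 4.0.0, Cell Ranger 7.0.0 and mm10 are named in the submitters' processing notes. How intronic reads were counted is not given in the sources used here. Text in the labels' protocols speaks of a suspension of nuclei, and kept spleen T cells had a median of 4.54% mitochondrial UMIs. The Ldha-/- library was not used here. Some results are not reported here.

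Counts were read with Python 3.11.15, numpy 2.4.6, scipy 1.17.1 and pandas 2.3.3. Both matrices list 6794880 barcodes and 28692 genes. In spleen 6860 barcodes passed the limits on UMIs and genes, of which 277 failed the mitochondrial limit, 24 the T cell minimum and 3 the Lyz2 limit. Kept spleen T cells held 56018262 UMIs, the selected cells 2179570 and the reference 38047315, so a count of 0, which allows 3 counts, limits a gene to 1.38 and 0.0788 CPM. Kept heart T cells held 42371660 UMIs. Counts were summed over cells without further normalization. Cells are not replicates and each group has 1 library, so no test was made and no p-value is given. Intervals are exact Poisson (levels), conditional binomial (ratios), Clopper-Pearson (shares) and order-statistic (medians), at 95%. UMI counts are subject to counting error only in these intervals.

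The members, gene lists and rules were chosen with earlier results of these data known. Named genes were the 5 rule genes, the 15 highest and 12 lowest ratios (without receptor and immunoglobulin segments, mitochondrial, ribosomal, haemoglobin, sex-linked and unnamed genes), up to 6 abundant members of each list and a set always named. Any other list member named was picked after its values were seen, as were the lower genes without a gene name. Thinning drew 4000 UMIs per cell without replacement, leaving out shallower cells. The functions were tested on simulated data. Alternatives concerned the threshold, reference, depth, scaling, filters, pseudocount and floor. Positions are from GENCODE M21 on GRCm38, which mm10 denotes, and promoters from RefSeq.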

Additional observations from a re-analysis of the deposited data

How the results depend on the processing

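No paired analysis was possible because each group has 1 library. No alternative run turned the direction of a 2-fold difference among the 40 named genes that had one, over 17 settings; 7 of them fell under 2-fold in at least 1 setting. The count of higher genes went from 81 to 43 with a floor of 50 CPM, which tests fewer genes, and stayed within 1.5 times under the other settings, from 55 with at least 3 rule-gene UMIs to 107 after thinning to 4000 UMIs. It was 77 without cells of 10 or more haemoglobin UMIs, an alternative chosen after seeing the data.

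The count of 2 lower genes was not stable. It was 1 with at least 3 rule-gene UMIs, 30 with at least 10, 14 with the reference reweighted to the selected cells' depth, 121 after thinning to 4000 UMIs, 17 without mitochondrial, ribosomal and Malat1 counts in the totals, 1 when cells above 3 times the median depth were dropped, 5 with a mitochondrial limit of 5%, 80 without cells holding a UMI of another cell type's marker, 0 with a pseudocount of 5 CPM, 17 with a floor of 10 CPM and 0 with a floor of 50 CPM. With 2 alternatives chosen after seeing the data it was 4 (without cells of 2 or more UMIs of 8 mitosis genes) and 7 (other cell types' markers without Ighm). Settings that leave few selected cells, such as 59 without any other cell type's marker, rest on fewer UMIs.

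The median of type I targets was 1.43 with at least 3 rule-gene UMIs, 2.14 with at least 10 and 2.06 after thinning. The spleen share was 7.00% with at least 3 rule-gene UMIs, 1.66% with at least 10, 1.68% after thinning, 4.17% with the 5% mitochondrial limit and 3.10% without cells holding another type's marker. The heart share was 3.83%, 0.977% and 1.08% under the first 3 of these. The Trbv19 share of the selected cells, 0.964 percentage points above the reference, was 11 above it with at least 10 rule-gene UMIs. In heart the 20 lower genes became 8 with at least 3 rule-gene UMIs, 446 after thinning and 32 with the mean of per-cell CPM, and the 71 higher genes 133 after thinning. The planned removal of cells with 2 or more cycling UMIs left 1 selected cell and was not run. Of the single-gene values under alternatives 2019 stayed within the counting interval of the reported ratio and 378 lay outside it.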
